A study of Mus musculus with 7 samples.

Results

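The distal convoluted tubule (DCT) and the principal cells of the collecting duct are neighbouring segments of the distal nephron that take up sodium in different ways, and their transcript profiles were compared within the same kidneys. The cells were those that the authors assigned to cluster 5 (8544 cells, DCT-like) and cluster 6 (870 cells, principal-like), together 9414 of the 43745 cells in the deposited matrix. Whole kidneys of 7 C57BL/6 mice, 4 to 8 weeks old, were profiled by droplet-based single-cell sequencing of transcript 3′ ends, in which molecules are told apart by unique molecular identifiers (UMIs). By genotype, 3 mice carried a Cre recombinase that switches a membrane-bound fluorescent reporter, among them 1 Cdh16CremTmG and 1 SclCremTmG mouse, and 4 mice were wild type (WT). The Cre of these named lines is driven from a gene of tubule epithelium (Cdh16) or of blood and endothelium (Scl). Both cell types came from every one of the libraries. The matrix numbers the libraries 1 to 7. Which number belongs to which mouse was not given in the sources used here, and all 7 were treated as a single group.

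In the DCT, sodium and chloride enter from the urine through the thiazide-sensitive cotransporter NCC, encoded by Slc12a3, under the control of the WNK kinases, and magnesium enters through TRPM6 channels. Principal cells take up sodium through the epithelial sodium channel (ENaC) under aldosterone and water through aquaporin 2 under vasopressin. Between both segments lies the connecting tubule, whose cells share ENaC with the principal cell and calcium transport genes such as Calb1 and Trpv5 with the late DCT.

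Cluster 5 held 578, 577, 200, 450, 4000, 1979 and 760 cells in libraries 1 to 7, and cluster 6 held 123, 122, 15, 38, 330, 238 and 4. A sum of counts was made for each cluster of each library with 5 cells or more, which gave 7 sums of DCT-like and 6 of principal-like cells, since the 4 principal-like cells of library 7 were too few. The sums held 477729 to 15081631 UMIs in cluster 5 and 58119 to 1173278 in cluster 6. The median cell had 2438 UMIs in cluster 5 and 2894.5 in cluster 6. Of 9369 distinct barcodes in both clusters, 45 occurred in more than 1 library. Libraries 5 and 6 stood apart in cluster 6. Their principal-like cells held 3620 and 3047 CPM of Calb1, against 862 to 1181 in libraries 1 to 4, and 3228 and 3980 CPM of Aqp2, against 6812 to 7750. List medians and counts that moved by more than 1.5 times without them are given both ways.

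The markers went with both labels. Slc12a3 had a UMI in 85.4% of cells of cluster 5 (exact binomial 95% interval 84.6% to 86.1%, counting error only) and in 14.4% of cells of cluster 6 (12.1% to 16.9%). The second value, pooled over libraries, was not above that of intercalated-like cells (cluster 7), at 14.8% but a higher median of 3917 UMIs per cell. By library it was 24.8% in library 5 (interval 20.3% to 29.9%) and 4.92% to 10.5% in libraries 1 to 4 and 6. These shares are not read as expression of Slc12a3 in principal-like cells, which was not tested. Aqp2 had a UMI in 3.90% of cells of cluster 5 and 96.2% of cells of cluster 6, and the first value was again close to that of intercalated-like cells, at 3.99%. In proximal tubule-like cells (cluster 3, median 2281 UMIs per cell), the shares were 7.00% for Slc12a3 and 1.57% for Aqp2. Thinned to 1000 UMIs per cell, which left out 473 cells of cluster 5 and 30 of cluster 6, the shares in clusters 5 and 6 were 80.3% and 8.45% for Slc12a3 and 2.09% and 85.0% for Aqp2. Intercalated-like cells thinned the same way had 6.92% for Slc12a3 (interval 5.76% to 8.23%, against 6.66% to 10.5% in cluster 6). For Aqp2 they had 1.36% (0.864% to 2.03%, against 1.79% to 2.43% in cluster 5). Unthinned, the Aqp2 share in cluster 5 ran from 0.526% in library 7 to 7.68% in library 6. Slc12a3 and Aqp2 were found together in 1.88% of cells of cluster 5 and 14.0% of cells of cluster 6. Of 9 DCT markers 8 were higher in cluster 5 and none lower, and all 10 principal markers were lower. Among all tested genes, 16.3% were higher and 14.2% lower at the threshold given below. The cells had been grouped by their own transcript levels, so these marker shares and counts describe the clusters. They are not an independent check of the labels.

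**Figure D1:**
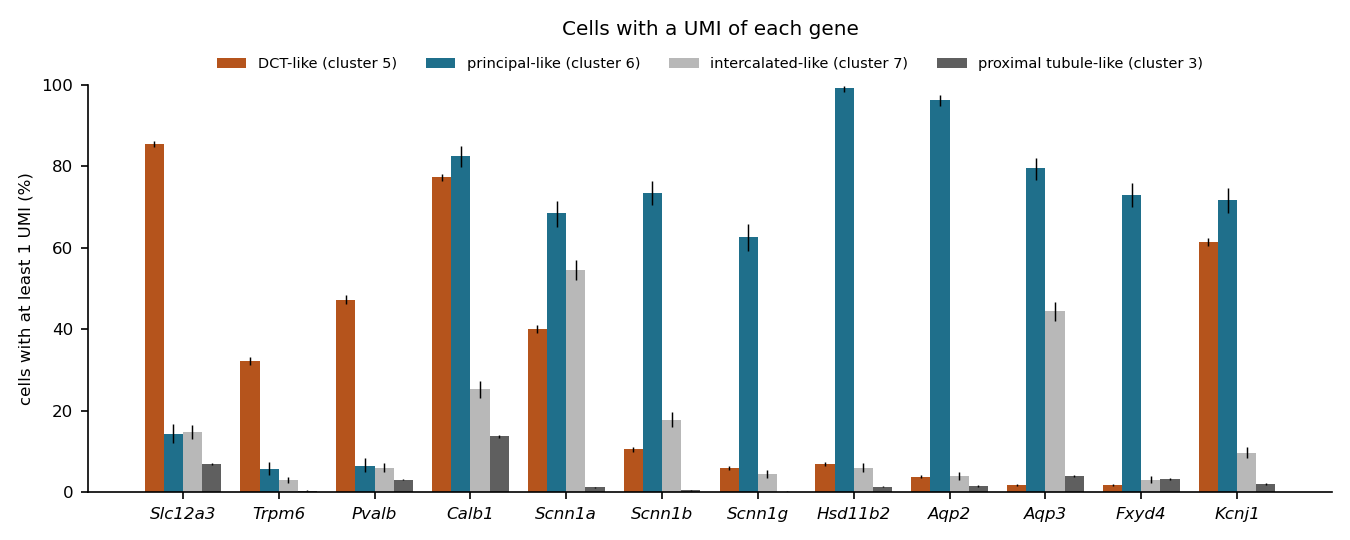
Share of cells with at least 1 UMI of 12 genes in DCT-like cells, principal-like cells, intercalated-like cells and proximal tubule-like cells (bars, percent of cells, unthinned), with exact 95% binomial intervals that cover counting error only. Slc12a3 reaches 85.4% of DCT-like and 14.4% of principal-like cells, Aqp2 3.90% and 96.2%, and Calb1 is found in most cells of both, at 77.2% and 82.5%.

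The promoters of the genes that define each side, and of Fxyd4, the gene with the largest fall, are shown so that the sequence around an annotated start of each can be read beside its level. They run from 250 bases before to 50 bases after the annotated start in RefSeq on GRCm38.p6, and 3 of the 4 genes looked up had an entry (Fxyd2 had none). Capitals mark matches to 5 motifs searched on both strands. TATAAA was taken as the TATA box and TGACG as the core of a cAMP response element. The GATA factors were represented by AGATAA. Steroid receptors were represented by AGAACA and estrogen-related receptors by AGGTCA.
Slc12a3 (chr8:94328958-94329257, plus strand): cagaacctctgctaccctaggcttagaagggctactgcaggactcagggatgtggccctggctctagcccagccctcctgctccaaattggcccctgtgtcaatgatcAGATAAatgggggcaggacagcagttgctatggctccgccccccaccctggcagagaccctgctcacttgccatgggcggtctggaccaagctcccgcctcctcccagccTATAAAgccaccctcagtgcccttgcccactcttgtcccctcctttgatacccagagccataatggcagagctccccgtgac
Aqp2 (chr15:99578806-99579105, plus strand): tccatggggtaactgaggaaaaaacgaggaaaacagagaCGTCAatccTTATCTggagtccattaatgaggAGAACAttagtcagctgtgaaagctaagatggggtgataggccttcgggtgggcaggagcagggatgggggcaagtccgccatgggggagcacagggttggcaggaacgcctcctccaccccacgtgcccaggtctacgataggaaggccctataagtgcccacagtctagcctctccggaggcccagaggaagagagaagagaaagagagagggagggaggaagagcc
Fxyd4 (chr6:117937286-117937585, minus strand): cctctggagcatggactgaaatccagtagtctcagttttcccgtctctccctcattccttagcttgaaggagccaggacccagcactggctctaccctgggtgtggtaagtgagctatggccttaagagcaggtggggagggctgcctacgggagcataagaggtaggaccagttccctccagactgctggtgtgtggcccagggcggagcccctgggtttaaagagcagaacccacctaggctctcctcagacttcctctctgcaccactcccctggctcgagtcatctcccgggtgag
The Slc12a3 window held AGATAA with its first base at -142 and TATAAA at -32 from the start. The Aqp2 window held the reverse complement of TGACG at -211, the reverse complement of AGATAA at -202 and AGAACA at -179. The Fxyd4 window held none of the 5 motifs. It lies wholly within the span given below for that gene (117933559 to 117937692, minus strand), which begins further upstream. The sequence before that outer end was not searched. Such short motifs are common. Of 32817 promoters in the table, 13.6% held TATAAA, 20.8% TGACG, 11.2% AGATAA, 19.0% AGAACA and 16.3% AGGTCA, so a match is a description of the letters and not a site in use.

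Levels are given as CPM, a gene's UMIs per 1000000 UMIs of the sum after TMM scaling, which sets the bulk of genes level between sums. The quasi-likelihood test of edgeR, with a term for each library, was run on 7539 genes. Of these, 1226 were higher (16.3%) and 1068 lower (14.2%) in DCT-like cells at an adjusted p under 0.05, together 30.4%. With a change of at least 2-fold, 491 were higher (6.51%) and 459 lower (6.09%). For 6.10% of tested genes every DCT-like sum lay above every principal-like sum, and for 5.35% every one lay below. The median log2 fold change over all tested genes was -0.01. Scaled by library totals instead, that median moved to -0.38 and the calls to 634 higher and 2613 lower, so fold changes here are relative to the bulk of genes. The clusters were themselves set by the authors on these counts. A p-value here describes how steadily the cells of both clusters differed between libraries, and is not independent evidence that the cell types differ or that a gene separates them.

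Among genes with an average log2 CPM of at least 6, the largest rise was that of Slc12a3 itself (ENSMUSG00000031766, chromosome 8, 94329201 to 94366214). It ranged from 3837 to 5575 CPM in DCT-like sums (median 4957) and from 29.1 to 337 CPM in principal-like sums (median 79.6), a log2 fold change of 5.29 ± 0.32 (SE, edgeR adjusted p = 5.28e-11). The groups did not overlap, and the 2 highest principal-like values, 337 and 165 CPM, were those of libraries 5 and 6. Pvalb, which encodes the calcium buffer parvalbumin of the early DCT, followed at 4.74, with 545 to 5517 CPM in DCT-like sums (median 951) and 4.72 to 247 CPM in principal-like sums (median 39.2). Its level in DCT-like cells split the libraries. Libraries 3 and 4 held 5341 and 5517 CPM and a Pvalb UMI in 91.0% and 89.8% of cells, against 545 to 1082 CPM and 34.9% to 59.6% of cells in the other libraries. The 10 further genes of the 12 with the largest rise were Uroc1 (4.21), Ppp1r1a (4.10), Sfrp1 (4.06), Abca13 (3.94), Cwh43 (3.80), Egf (3.64), Fabp3 (3.54), Mfge8 (3.54), Lhx1os (3.47) and Ckb (3.42). Ppp1r1a encodes an inhibitor of protein phosphatase 1, Sfrp1 a secreted Wnt antagonist, Uroc1 an enzyme of histidine breakdown, Fabp3 a fatty acid binding protein and Ckb the brain-type creatine kinase. Lhx1os is a long non-coding RNA gene on the plus strand of chromosome 11, starting at 84525660. Lhx1 lies on the minus strand from 84518284 to 84525535, so the 2 genes face away from each other with their starts adjacent.

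In the other direction the leading gene was Fxyd4 (ENSMUSG00000004988, chromosome 6, 117933559 to 117937692), which encodes a regulator of the sodium pump also known as CHIF. It had 0 to 32.4 CPM in DCT-like sums (median 9.61) and 1177 to 5228 CPM in principal-like sums (median 4962), a log2 fold change of -7.97 ± 0.29 (edgeR adjusted p = 9.08e-14). Aqp2 (ENSMUSG00000023013, chromosome 15, 99579055 to 99584547) had 2.89 to 89.0 CPM in DCT-like sums (median 26.4) and 3228 to 7750 CPM in principal-like sums (median 6848), at -7.28 ± 0.32. Neither gene's groups overlapped, and the lowest principal-like values of both came from libraries 5 and 6. The other genes of the 12 with the largest fall were Apela (-6.71), Aqp3 (-6.66), Kcne1 (-5.87), Tmsb4x (-5.64), Avpr2 (-5.43), Hsd11b2 (-5.28), Ahnak (-5.12), Cav1 (-4.64), Gata2 (-4.50) and Tmem45b (-3.74). Apela encodes a peptide ligand of the apelin receptor, Kcne1 a subunit of potassium channels, Tmsb4x the actin-binding thymosin beta 4 and Cav1 the caveolar coat protein caveolin 1. The rule for the 12 genes in each direction required the same direction in all 6 libraries with both sums, so that agreement is a condition and not a result.

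**Figure D2:**
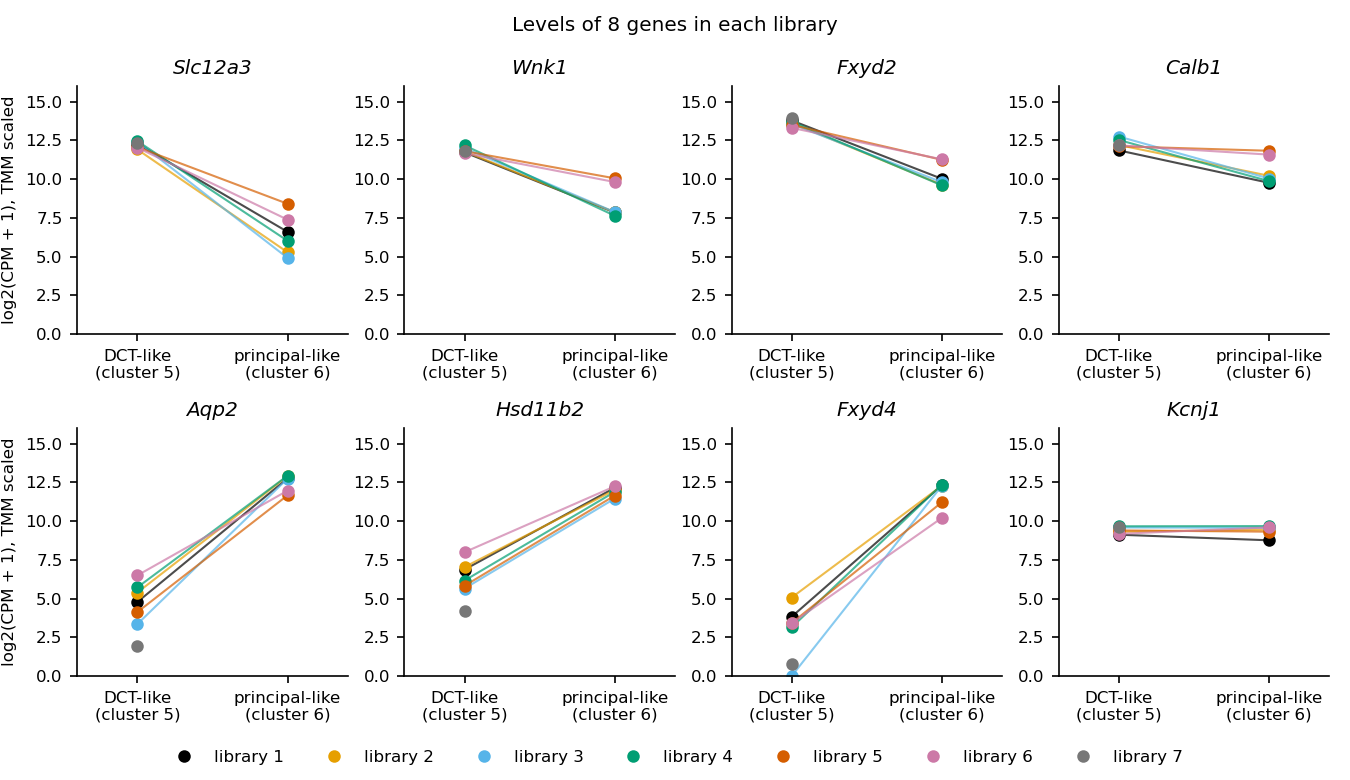
Levels of 8 genes in each library (log2 of TMM-scaled CPM + 1), with DCT-like sums on the left, principal-like sums on the right and a line for each of the 6 libraries with both. Slc12a3, Wnk1 and Fxyd2 are higher and Aqp2, Hsd11b2 and Fxyd4 lower in DCT-like cells in every such library, Calb1 is close together in libraries 5 and 6 only, and Kcnj1 averages 683 CPM on both sides.

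Around the sodium chloride cotransporter, 6 of 14 genes were higher, 3 lower and 5 not called. The median log2 fold change was 0.13, between 0.07 without library 3 and 0.25 without library 6, 0.23 without libraries 5 and 6, and -0.23 with library totals. With all 16 clusters in the fit it was 1.05 (12 genes tested). It was -0.04 in cells with at most 30% mitochondrial UMIs (12 tested), and -0.04 with DCT-like cells sampled down to the number of principal-like cells (11 tested). The median of this list thus has no settled size or sign. Wnk1, a kinase that signals to NCC and has a kidney-specific short form in the DCT, had 3260 to 4608 CPM in DCT-like sums (median 3560) and 197 to 1055 CPM in principal-like sums (median 232), at 3.20 ± 0.30. Its principal-like values were 197 to 232 CPM in libraries 1 to 4 but 1055 and 894 CPM in libraries 5 and 6. The counts are per gene and do not separate the kidney-specific form from the full-length kinase. Wnk4 rose by 1.88 and Klhl3, the adaptor through which WNK kinases are degraded, by 2.65. The kinases that phosphorylate NCC differed less. Stk39 (SPAK) averaged 83.9 ± 11.9 CPM in DCT-like and 113 ± 35.3 CPM in principal-like sums (SD, n = 7 and 6). Oxsr1 averaged 25.1 ± 4.29 CPM in DCT-like and 17.0 ± 10.9 CPM in principal-like sums, and neither passed the test. Sgk1, the kinase induced by aldosterone, fell by 2.90, and Nedd4l, the ubiquitin ligase it inhibits, fell by 1.71.

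Magnesium genes moved further. Of 9 tested, 7 were higher and 1 lower, and the median was 3.21. Trpm6, the apical magnesium channel, had 135 to 264 CPM in DCT-like sums (median 221) and 0 to 57.6 CPM in principal-like sums (median 4.07), at 3.21 ± 0.30. Trpm7, its partner channel, rose by 2.65, and Cnnm2, a basolateral protein of magnesium transport, by 2.16. Egf, whose product stimulates TRPM6, had 2204 to 5059 CPM in DCT-like sums (median 3314) and 145 to 548 CPM in principal-like sums (median 245). Slc41a1, a magnesium exchanger, was the member that fell, at 17.5 ± 3.75 CPM in DCT-like and 33.9 ± 6.40 CPM in principal-like sums (-0.98 ± 0.22).

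The FXYD regulators of the sodium pump moved in opposite directions. Fxyd2 (ENSMUSG00000059412, chromosome 9, 45399669 to 45410278), the gamma subunit, had 10093 to 15840 CPM in DCT-like sums (median 12608) and 771 to 2467 CPM in principal-like sums (median 960). Its log2 fold change of 3.29 ± 0.26 (edgeR adjusted p = 2.7e-09) stands against the -7.97 of Fxyd4. In the principal-like sums of libraries 5 and 6, Fxyd2 was at 2414 and 2467 CPM, against 771 to 1033 CPM in libraries 1 to 4, and Fxyd4 at 2368 and 1177 CPM, against 4957 to 5228 CPM. Fxyd2 was not particular to the DCT, since 99.4% of proximal tubule-like and 95.8% of intercalated-like cells also had a UMI of it. The beta subunit Atp1b1 averaged 3716 ± 376 CPM in DCT-like and 3105 ± 968 CPM in principal-like sums and was not called, at 0.26 ± 0.17 (adjusted p = 0.259). Without libraries 5 and 6 it passed the test.

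Of 10 genes for basolateral potassium and chloride channels, 3 were higher and none lower, a share near the 30.4% called among all genes, and the median was 0.45 (0.09 with library totals). Kcnj10, the potassium channel that sets the membrane voltage of the DCT, averaged 191 ± 14.9 CPM in DCT-like and 246 ± 72.7 CPM in principal-like sums (-0.34 ± 0.14, edgeR adjusted p = 0.0803). Its partner Kcnj16 was at 0.17 ± 0.12 and Bsnd, which encodes the chloride channel subunit barttin, at 0.49 ± 0.24, neither of them called. Kcnj15 (1.31) and Slc12a7 (0.58) were among the members that rose. Without libraries 5 and 6, Kcnj16 and Bsnd passed the test as well, and the list had 5 of 9 higher and a median of 0.69. Kcnj1, the apical potassium secretory channel ROMK, had 554 to 808 CPM in DCT-like sums (median 672) and 431 to 815 CPM in principal-like sums (median 724), and the groups overlapped over nearly their whole range (-0.04 ± 0.12, edgeR adjusted p = 0.861). The potassium channel subunits Kcne1 (-5.87) and Kcnq1 (-0.95) were the 2 of 4 apical potassium genes that fell. The median of that list, -0.49, was -0.12 without library 1 and -0.04 without library 3, where 5 genes were tested. It was 0.12 with all 16 clusters in the fit (6 tested) and 0.04 without the low-count filter (7 tested), so its sign is not settled.

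Sodium channel genes fell by unequal amounts. Of 15 ENaC and aldosterone genes, 7 were lower, 3 higher and 5 not called, with a median of -0.40. Without library 5 the median was -0.79 (8 lower and 2 higher of 14), and without libraries 5 and 6 it was -0.95 (9 lower and 2 higher of 14). The alpha subunit Scnn1a had 197 to 326 CPM in DCT-like sums (median 271) and 363 to 611 CPM in principal-like sums (median 472), a fall of 1.82-fold (-0.87 ± 0.12). The beta subunit Scnn1b had 38.3 to 116 CPM in DCT-like sums and 407 to 716 CPM in principal-like sums (-3.01 ± 0.14). The gamma subunit Scnn1g had 12.3 to 74.0 CPM in DCT-like sums and 203 to 490 CPM in principal-like sums (-3.20 ± 0.17). The groups of none of the 3 subunits overlapped, and the fold change of the alpha subunit was the smallest of the 3. The mineralocorticoid receptor gene Nr3c2 averaged 20.4 ± 4.77 CPM in DCT-like and 71.5 ± 20.5 CPM in principal-like sums (-1.67 ± 0.19). Hsd11b2 (ENSMUSG00000031891, chromosome 8, 105518755 to 105523988), whose enzyme inactivates glucocorticoids so that aldosterone can reach that receptor, had 17.3 to 253 CPM in DCT-like sums (median 70.5) and 2789 to 4822 CPM in principal-like sums (median 3929). A UMI of Hsd11b2 was present in 6.94% of DCT-like cells, 99.1% of principal-like cells and 5.96% of intercalated-like cells. The 3 members that rose were Nr3c1 (1.04), the glucocorticoid receptor gene, with the glucocorticoid-induced Fkbp5 (1.00) and the deubiquitinase gene Usp2 (0.94), and Nr3c1 was not called with library totals in place of TMM or without libraries 5 and 6. All 7 genes of inherited water and sodium disorders of principal cells were lower (median -3.20).

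Water transport was on the principal side. Of 13 genes tested for water channels and vasopressin signalling, 6 were lower and none higher. The median was -0.42, but -0.03 without library 5 (4 lower of 11), -0.09 in cells with at most 30% mitochondrial UMIs (4 lower of 10) and -0.82 with library totals (7 lower of 13). With DCT-like cells sampled down to the number of principal-like cells it was -2.81 (3 lower of 6). Without the low-count filter it was -0.31, with 2 higher and 7 lower of 18. The median of this list thus has no settled size. Besides Aqp2 and Aqp3, the basolateral channel gene Aqp4 had 7 UMIs in all 8544 DCT-like cells and 327 in the principal-like sums. The vasopressin receptor gene Avpr2 had 0 to 7.69 CPM in DCT-like sums (median 3.07) and 115 to 340 CPM in principal-like sums (median 280), and the prostaglandin receptor gene Ptger1 averaged 1.35 ± 0.906 CPM in DCT-like and 101 ± 73.1 CPM in principal-like sums. Genes of cAMP production and vesicle fusion did not follow them. Adcy6, an adenylate cyclase, averaged 102 ± 11.3 CPM in DCT-like and 86.1 ± 32.8 CPM in principal-like sums, Vamp2 was at 0.02 ± 0.16 on the log2 scale and Snap23 at 0.05 ± 0.20, and none was called.

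Calcium genes did not divide as cleanly. Of 11 tested, 7 were higher and 1 lower, with a median of 1.08, and without libraries 5 and 6 the count was 6 higher and 1 lower of 9 with a median of 1.98. Calb1 (ENSMUSG00000028222, chromosome 4, 15881264 to 15908064), which encodes the calcium shuttle calbindin, had 3678 to 6840 CPM in DCT-like sums (median 4677) and 862 to 3620 CPM in principal-like sums (median 1114), at 1.68 ± 0.26, with no overlap. S100g, on the X chromosome, encodes the smaller calbindin and had 9258 to 58701 CPM in DCT-like sums (median 40311) and 2034 to 57986 CPM in principal-like sums (median 21604), with the DCT-like level higher in 4 of 6 libraries. Klk1 was also higher in 4 of 6 libraries. It is one of a family of near-identical kallikrein genes, so its count is uncertain. Trpv5, the apical calcium channel, averaged 45.5 ± 19.7 CPM in DCT-like and 62.8 ± 65.5 CPM in principal-like sums and was not called (-0.70 ± 0.27, edgeR adjusted p = 0.0558). Its principal-like values were 124 and 159 CPM in libraries 5 and 6 and 0 to 47.2 CPM elsewhere. Atp2b2, a plasma membrane calcium pump, fell to 5.07 ± 3.75 CPM in DCT-like sums, against 59.4 ± 18.4 CPM in principal-like sums. Calbindin RNA was thus common to both cell types. A Calb1 UMI was found in 77.2% of DCT-like, 82.5% of principal-like and 25.3% of intercalated-like cells, while a Trpv5 UMI was found in 7.54%, 19.9% and 2.37%.

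The principal-like cluster was not uniform in these genes. Split by whether a cell had a Fxyd4 UMI, a division chosen after the values were seen, cells without one made up 27.0% of the cluster, at a median of 2540 UMIs per cell against 3061 in cells with one. Cells with a Fxyd4 UMI made up 92.7%, 93.4% and 94.7% of cluster 6 in libraries 1, 2 and 4, all 15 cells in library 3, 77.9% in library 5 and 40.3% in library 6. Pooled over libraries and by total UMIs, without TMM scaling, the cells without a Fxyd4 UMI had 4122 CPM of Calb1, against 1674 in the cells with one. They had 16330 against 2071 CPM of Klk1 and 1271 against 435 CPM of Wnk1. Trpv5 was at 176 against 59.8 CPM in the pool, but in library 6, which held 142 of the 235 cells without a Fxyd4 UMI, it was at 149 against 123 CPM, so the pooled values also differ by the libraries they draw on. Aqp2 was at 1621 CPM in the cells without a Fxyd4 UMI, against 5502, and Tmsb4x at 1179 against 6957. Pooled levels of Hsd11b2 (3343 against 3598 CPM), Scnn1b (580 against 491) and Slc12a3 (172 against 177) lay closer together. By library, Slc12a3 was at 0 against 104 CPM in library 1, 259 against 299 in library 5 and 121 against 174 in library 6. In library 2 it went the other way, at 43.7 (from 1 UMI) against 35.8 CPM. Calb1 was higher and Aqp2 lower in the cells without a Fxyd4 UMI in each of the 4 libraries with at least 5 such cells. These cells carried Hsd11b2 and ENaC, with more Calb1, Klk1 and Trpv5 in the pool, genes of the connecting tubule marker list. Klk1 was not particular to them, with a UMI in 75.5% of loop of Henle-like and 66.5% of DCT-like cells. Their Trpv5 rested on 5 and 3 UMIs in libraries 1 and 2. Whether they are connecting tubule cells was not tested. The group was defined by Fxyd4 after the values were seen, so these differences are a description with no test. Cells without a Fxyd4 UMI had fewer UMIs in 3 of these libraries, with medians of 2309 against 2640.5 in library 1, 2701.5 against 3493.5 in library 2 and 2168 against 2298.5 in library 6, and more in library 5, with 3490 against 3259. The part of depth in the split was not tested.

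**Figure D3:**
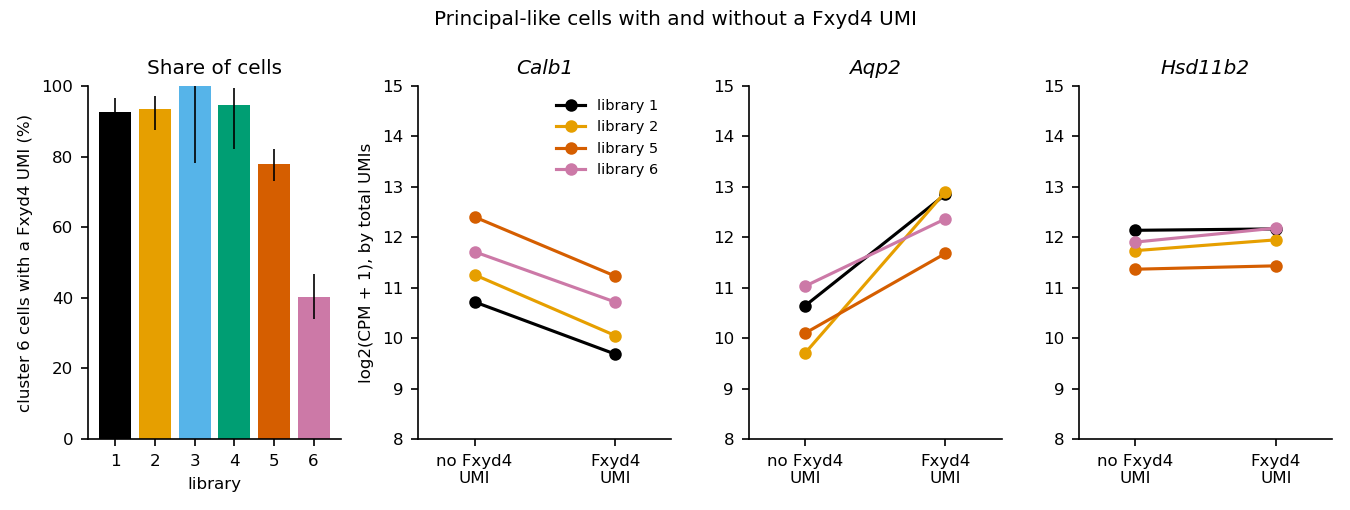
Cells of cluster 6 by Fxyd4: the share of cells with a Fxyd4 UMI in libraries 1 to 6 (left, percent with exact 95% binomial intervals), and log2(CPM + 1) by total UMIs of Calb1, Aqp2 and Hsd11b2 in cells without and with a Fxyd4 UMI in the 4 libraries with at least 5 cells of each. The share is 40.3% in library 6 and 77.9% in library 5, against 92.7% or more elsewhere, and Calb1 is higher and Aqp2 lower in cells without a Fxyd4 UMI in all 4 libraries.

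Segment transcription factors were more often lower than higher, with 14 of 25 lower, 5 higher and a median of -0.90. Lhx1, a homeobox gene of nephron patterning, had 302 to 499 CPM in DCT-like sums (median 349) and 0 to 115 CPM in principal-like sums (median 59.7), at 2.47 ± 0.18. Emx1 (1.91), Sall3 (3.64) and the estrogen-related receptor gene Esrrb (3.59) also rose, none with overlapping groups. On the principal side, Gata2 had 2.17 to 19.9 CPM in DCT-like sums (median 7.33) and 169 to 289 CPM in principal-like sums (median 250), while its relative Gata3 fell by 1.46 only and kept 88.3 ± 11.4 CPM in DCT-like sums, against 229 ± 39.9 CPM in principal-like sums. Tfcp2l1, a factor needed for the cell types of the collecting duct, fell by 1.63 and was at 277 ± 49.2 CPM in DCT-like and 822 ± 179 CPM in principal-like sums. The Ets factor genes Elf5 (-6.21, from 3 UMIs in DCT-like sums) and Ehf (-4.66), with Emx2 (-2.68), Pax2 (-2.22) and Pax8 (-1.68), were lower as well. The paralogs Emx1 and Emx2 thus moved in opposite directions. Tfap2b (-0.19 ± 0.14) and Mecom (0.01 ± 0.12) were not called, and Hoxd8 rose by 0.38 ± 0.13 but turned to a lower value with library totals in place of TMM.

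Genes of junctions and adhesion were mostly lower in DCT-like cells. Of 13 claudin and tight junction genes, 8 were lower and 2 higher (median -0.67), against 6 lower and none higher of 10 without libraries 5 and 6, and of 16 cadherin, keratin and matrix genes, 12 were lower and 1 higher (median -1.29). Cldn4, a claudin of the chloride path in the collecting duct, averaged 22.8 ± 10.4 CPM in DCT-like and 139 ± 65.2 CPM in principal-like sums (-2.88 ± 0.22), while Cldn8, its partner, differed by -0.51 ± 0.12 with overlapping groups. Npnt, which encodes the basement membrane protein nephronectin, averaged 80.9 ± 9.93 CPM in DCT-like and 929 ± 231 CPM in principal-like sums. Krt7 (-1.88), Cav2 (-3.24), Cdh16 (-1.26), Cdh1 (-0.94) and Epcam (-0.76) fell, and the integrin gene Itga6 was the member that rose (0.98). Cdh16 also drives the Cre of 1 of the mice, whose library is not known.

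Secreted products that passed the low-count filter were mostly higher, with 9 of 14 up, 3 down and a median of 1.13 (7 up, 4 down and 0.68 with library totals). Without that filter 20 were tested, with 9 up, 7 down and a median of -0.07. Besides Egf, Wfdc15b rose by 2.56, the kininogen gene Kng2 by 2.34 and the antimicrobial peptide gene Defb1 by 1.00. Umod, which encodes uromodulin of the thick ascending limb and the early DCT, averaged 2522 ± 1439 CPM in DCT-like and 372 ± 168 CPM in principal-like sums. Loop of Henle markers, Umod among them, summed to 1273 to 5522 CPM in DCT-like and 194 to 771 CPM in principal-like sums. Of these 5 markers 1 was higher, 1 lower and 3 not tested, so the sum does not stand for the list. Slc12a1, another of them, had a UMI in 3.02% of DCT-like and 5.52% of principal-like cells. The level of Umod in loop of Henle-like cells (cluster 4) was 10097 ± 2035 CPM (SD, n = 7). Spp1 (1.26) and Klk1 (1.64) passed the test with overlapping groups, and Apela, Ctsh and Wfdc2 were the members that fell.

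**Figure D4:**
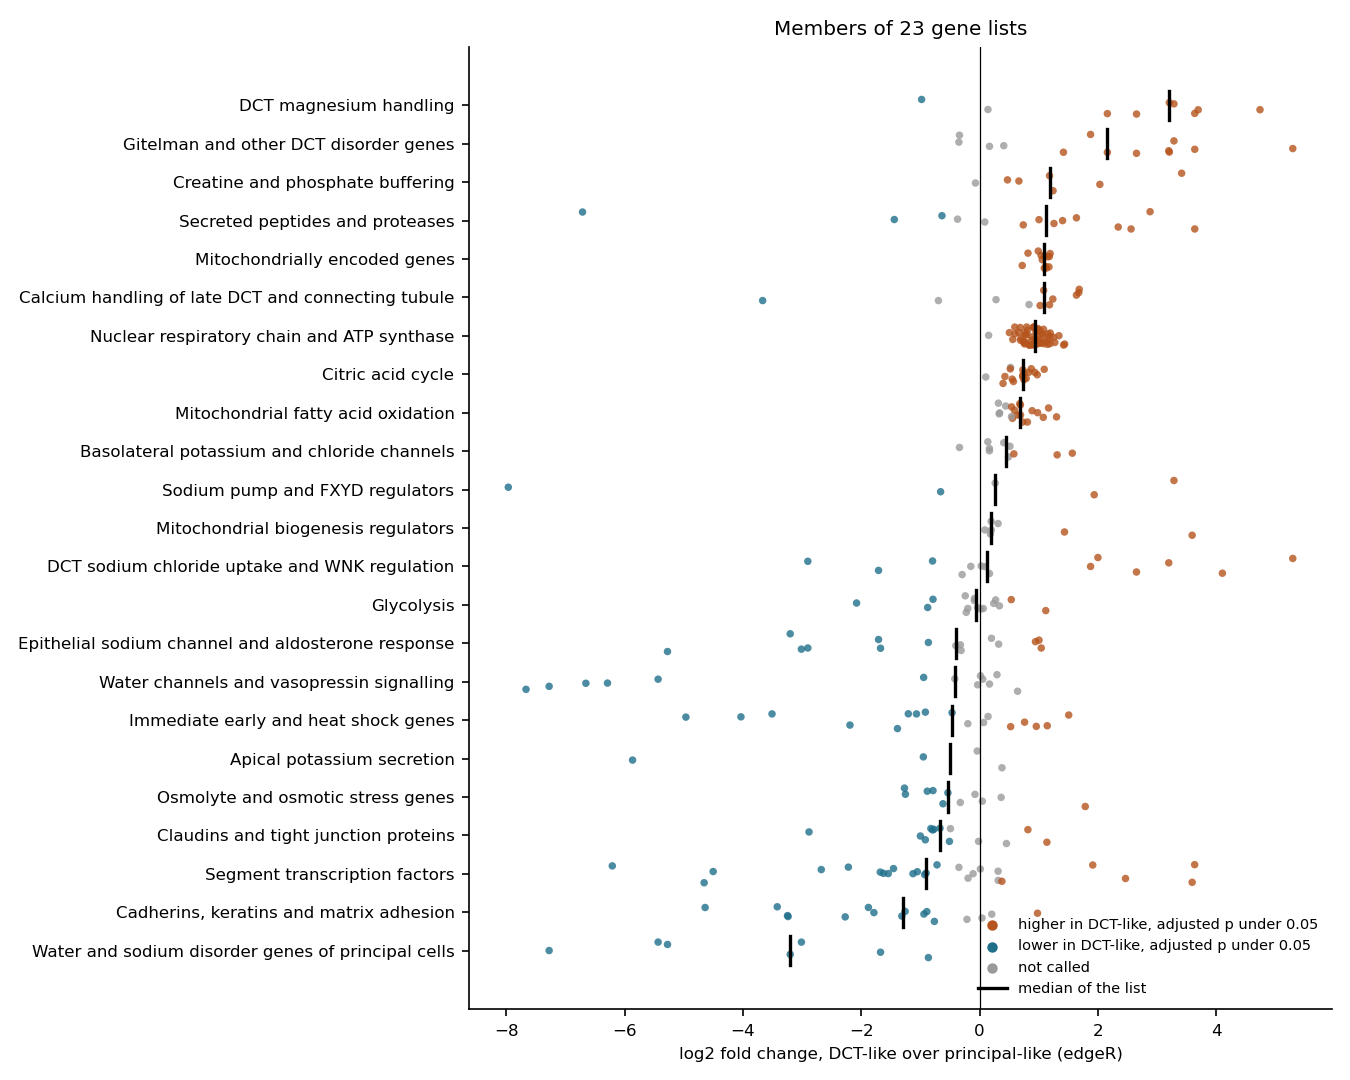
Log2 fold changes (DCT-like over principal-like, edgeR) of the tested members of 23 gene lists, a point per gene, with the median of each list as a bar and the lists ordered by it. The medians run from 3.21 for magnesium handling to -3.20 for water and sodium disorder genes. Respiratory chain, mitochondrially encoded, citric acid cycle and fatty acid oxidation genes sit in a narrow band above 0, whereas mitochondrial biogenesis regulators run from 0.09 to 3.59.

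The widest agreement within a list was among mitochondrial genes, a background feature of the DCT being its dense packing with mitochondria. Of 58 nuclear genes of the respiratory chain and ATP synthase, 57 were higher, and Ndufa5 was not called (0.15 ± 0.12). Summed, they reached 76564 to 136369 CPM in DCT-like sums, at 115617 ± 19425 CPM, and 49894 to 70744 CPM in principal-like sums, at 57259 ± 7648 CPM. The groups did not overlap, and the lowest DCT-like value was that of library 6. The median of the list was 0.94, with Cox6c at 1.19 ± 0.15, Cox4i1 at 0.98 ± 0.14, Cox7c at 1.25 ± 0.15, Atp5e at 1.11 ± 0.15 and Ndufa4 at 1.02 ± 0.14. With library totals in place of TMM, 48 of 58 were higher, 1 was lower and the median was 0.50. All 13 mitochondrially encoded genes tested were higher as well (median 1.10), against 11 of 13 with library totals (median 0.63) and 12 of 13 in cells with at most 30% mitochondrial UMIs (median 0.47). Of the cells' UMIs, a median of 29.2% to 36.6% over libraries was mitochondrial in cluster 5, and 13.6% to 20.7% in cluster 6 in libraries 1 to 5. Library 6 went the other way, with 29.2% in cluster 5 and 30.6% in cluster 6. Limited to cells with at most 30% mitochondrial UMIs (3853 and 608 cells), the nuclear list still had 57 of 58 higher, with a median of 0.85.

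Citric acid cycle genes (16 of 18 higher, none lower, median 0.73) and fatty acid oxidation genes (14 of 19 higher, none lower, median 0.68) rose too, but with library totals 7 of 18 and 6 of 19 were called. Cs, the first enzyme of the cycle, was not called (0.10 ± 0.15). Idh2 (0.98), Acat1 (1.08) and Echs1 (1.17) were among those that rose. Of the regulators of mitochondrial biogenesis, Esrrb and Ppargc1b (1.44) were the 2 of 7 that rose (4 of 9 without library 4, 1 of 5 without libraries 5 and 6), while Ppargc1a averaged 288 ± 50.9 CPM in DCT-like and 264 ± 68.7 CPM in principal-like sums and Tfam was at 0.18 ± 0.19, neither called. The share called of this list, 28.6%, was near the 30.4% called among all genes. Glycolysis genes had no common direction, with 2 of 16 higher, 3 lower and a median of -0.06 (-0.15 without library 5), and with library totals 1 higher and 9 lower. With TMM, 31.25% of them were called, again near the 30.4% among all genes. Pfkl (-0.88), Ldha (-0.79) and the glucose transporter gene Slc2a1 (-2.08) fell, and Pkm (0.54) was among those that rose. For energy buffering, 6 of 7 creatine and adenylate kinase genes were higher (4 higher and 1 lower with library totals), among them Ckb, Ak1 (2.03), Gatm (1.24) and the creatine transporter gene Slc6a8 (1.18), while mitochondrial Ckmt1 was not called (-0.07 ± 0.14).

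**Figure D5:**
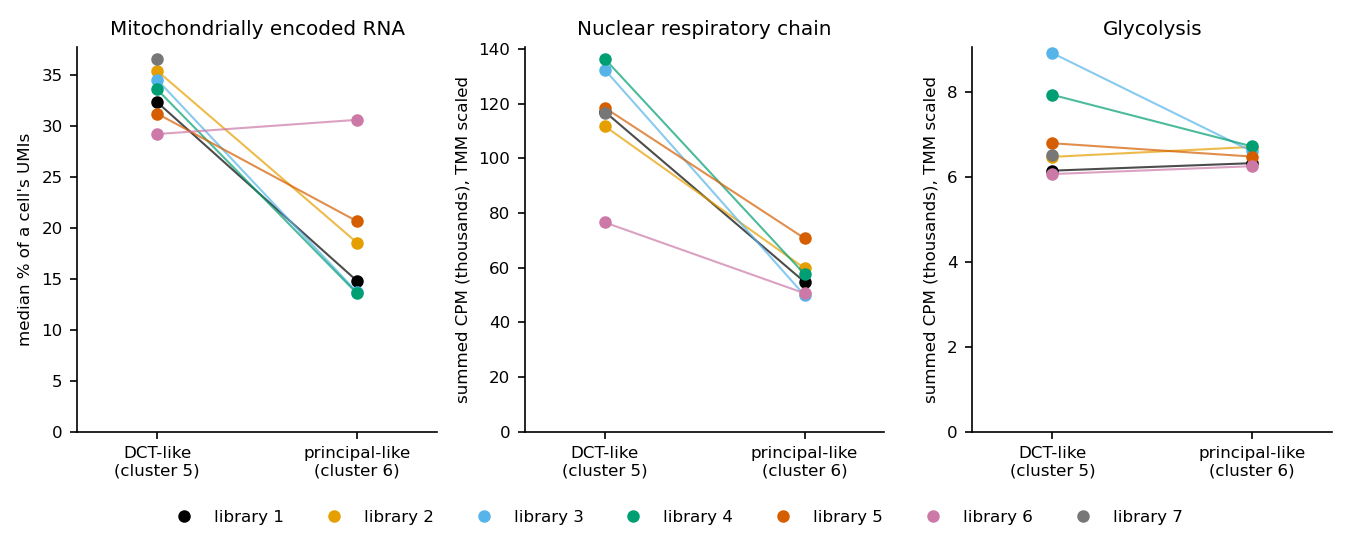
Median mitochondrial share of a cell's UMIs (left), and summed TMM-scaled CPM of nuclear respiratory chain genes (middle) and of glycolysis genes (right) by library, with DCT-like cells left of principal-like cells and a line for each library with both. Respiratory chain sums are higher in DCT-like cells in all 6 such libraries, the mitochondrial share in 5 of 6 (not library 6), and glycolysis sums lie between 6061 and 8906 CPM in DCT-like and between 6246 and 6712 CPM in principal-like cells.

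Markers of proximal tubule cells moved with these lists. All 9 were higher in DCT-like cells, by 1.05 to 1.61 on the log2 scale. Their summed level was 1399 to 7655 CPM in DCT-like sums (median 4301) and 1265 to 3122 CPM in principal-like sums (median 1506), and none of the 9 was at 0 in either cluster. Relative to the 32203 CPM of proximal tubule-like cells, the mean sums were 13.4% in DCT-like and 5.49% in principal-like cells. The nuclear respiratory chain genes stood at 72650 ± 7046 CPM in proximal tubule-like cells (SD, n = 7), below their level in DCT-like cells. Fatty acid oxidation genes stood at 3562 ± 845 CPM there, against 3758 ± 706 CPM in DCT-like and 2143 ± 343 CPM in principal-like sums. The part of proximal RNA in the smaller differences was not tested. With the 6% of cells with the highest doublet scores left out (11.2% of cluster 5 and 5.40% of cluster 6), 57 of 58 respiratory chain and 15 of 19 fatty acid oxidation genes were higher. Intercalated markers summed to 11.6 to 169 CPM in DCT-like and 31.8 to 116 CPM in principal-like sums. Urothelial markers were at 0 in both clusters, and podocyte and T lymphocyte markers summed to at most 6.37 and 14.5 CPM in any sum. The haemoglobin gene Hbb-bs reached 1560 CPM in DCT-like cells of library 4 and 253 CPM in those of library 2, and at most 14.5 CPM in any principal-like sum.

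Immediate early and heat shock genes, which also respond to tissue dissociation, were mixed, with 5 of 17 higher, 9 lower and a median of -0.47. That median was -0.27 without library 1, -0.25 without library 2 (5 higher and 6 lower of 18), -0.84 without library 5 and -0.80 without libraries 5 and 6. Egr1 (-4.96), Fos (-4.03) and Junb (-3.51) fell, and Fos had 1.57 to 16.7 CPM in DCT-like sums and 31.4 to 465 CPM in principal-like sums. Ier3 (1.51), Hspe1 (0.96) and Hspa8 (0.53) rose. Of 11 osmolyte genes tested, 6 were lower and 1 higher, and 3 were lower without library 2 or by DESeq2. Slc5a3, the inositol transporter gene, rose by 1.79 with no overlap, while Slc6a6 (-1.25), the taurine transporter gene, and Nfat5 (-0.79), the osmotic stress factor gene, fell. Among 13 genes of Gitelman syndrome, pseudohypoaldosteronism and other DCT disorders, 9 were higher and none lower, with a median of 2.16. Kcnj10 and Cul3 (0.17 ± 0.17) were among the 4 that were not called.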

How the data were processed

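Cells of whole mouse kidneys were profiled by droplet single-cell RNA sequencing. The authors deposited whole-number UMI counts per gene and cell, with a cluster number for each cell. Per the submitters' processing notes, Cell Ranger 1.3 and STAR were used with mm10 (GRCm38.p4). The matrix held 16272 genes and 43745 cells, whereas the design text states 57979 cells, and its clusters are the authors' own.

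Counts were summed per library and cluster with at least 5 cells. Genes passing filterByExpr were tested with edgeR 4.0.16 (R 4.3.3; quasi-likelihood F test, TMM, terms for library and cluster) with Benjamini-Hochberg adjustment at 0.05, after the code was tested on simulated data. Both cell types of a library come from 1 mouse, which is where the pairing by library comes from, and libraries were the replicates. No SE or p-value was made from cells. Library sums give CPM, scaled by TMM over all 16 clusters. Intervals are exact binomial ones at 95%. Scrublet in scanpy 1.11.5 called 0.0983% of cells, which is too few to be useful, so doublets were treated only in an alternative without the 6% of cells with the highest scores.

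Genes named by fold were the 12 with the largest change in each direction whose log2 CPM averaged 6 or more, with 10 or more counts per cluster and the same sign in all 6 libraries with both sums. Genes named by list were the 8 with the highest level in either cluster and those not called, with all markers. Nedd4l, Atp2b2, Nr3c1, Fkbp5, Emx2, Ehf, Pax2, Pax8, Itga6, Kng2, Ctsh, Pfkl, Ldha, Slc2a1, Fos and Egr1 fall outside that rule and were chosen after their values were seen. The cells compared and the 23 gene lists and 14 marker lists were chosen with earlier results of these data known. Alternatives covered scaling, filter, DESeq2 1.42.0, cells per sum, block, each library, depth per cell, mitochondrial share and doublets. The alternatives with library totals and without libraries 5 and 6 were added after seeing the data. Some genes and 1 genotype are not reported here.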

Additional observations from a re-analysis of the deposited data

Results flagged for a closer look

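Of 81 groups of values examined, 9 held a sample far from the others. The rule used flags about 1 in 20 groups of normally distributed values. CPM near 0 are not distributed so, and that rate is no measure for them. In DCT-like cells, Fxyd4 was at 32.4 CPM in library 2, against 0 to 13.2 CPM in the other libraries. Aqp3 was at 27.5 CPM in library 6, against 0.722 to 11.7 CPM, and Cav1 at 44.2 CPM in library 6, against 4.33 to 16.7 CPM. Ahnak was at 0 CPM in library 3, against 6.27 to 8.79 CPM. Aqp4 was at 3.07 CPM in library 3, against at most 0.570 CPM, and Elf5 at 1.57 CPM in library 4, against at most 0.190 CPM. The Aqp4 value came from 1 of 200 cells, so such flags can rest on single molecules.

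In principal-like cells, both samples came from library 5. Abca13 was at 52.6 CPM there, against 0 to 11.6 CPM in the other libraries, and Trpm6 at 57.6 CPM, against 0 to 18.8 CPM. The ratio of DCT-like to principal-like cells was 190 in library 7, against 4.70 to 13.3 in the other libraries, and that library gave no principal-like sum.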

How the results depend on the processing

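The count of genes called was 2294. It was 1087 with every cell thinned to 1000 UMIs and 1181 with DCT-like cells sampled down to the number of principal-like cells, alternatives that remove counts by construction. Leaving out 1 library at a time gave 1700 to 2275. The paired fit rests on the library as a block, and without that replicate block the count was 1855. The other alternatives gave 1769 (cells with at most 30% mitochondrial UMIs) to 3247 (library totals), with 1982 by DESeq2 and 1848 without libraries 5 and 6. Of 6376 values for 330 genes, 6094 kept their side of the threshold, 192 no longer passed it and 85 newly passed it. A change of sign was counted as turning round only where the main fit or the alternative called the gene. The 6094 can thus hold changes of sign in genes that neither called. By that count 5 turned round. Those 5 did so with library totals, which gave log2 fold changes of -0.049 for Hoxd8, -0.40 for Mecom, -0.30 for Ndufa5, -0.42 for Tpi1 and -0.36 for Hsp90aa1. Of these, Hoxd8 alone had been called before. The principal-like sum of library 3 came from 15 cells, so low genes there rest on few counts.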
